A study of Mus musculus with 11 samples.

Results

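Maternal H3K27me3 imprinting was represented here by 10 autosomal genes, taken by symbol from a table of 49585 gene rows: Gab1, Btg3, Jade1, Tle3, Etv6, Sfmbt2, Bbx, Smoc1, Slc38a4 and Runx1. All 10 had a row. The table gave expression as TPM (reads per length of exon, scaled so that each library sums to the same total) for 11 RNA-seq libraries of mouse embryos, and held no allele data, so every value below is the sum of both parental copies. The embryos were of strain C57BL/6 and had been made either by round spermatid injection (ROSI), in which the nucleus of an immature, still round male germ cell is placed in the egg, or by intracytoplasmic sperm injection (ICSI). They were collected as zygotes (1 cell; 2 ROSI and 3 ICSI libraries) or as 2-cell embryos (2 cells; 3 ROSI and 3 ICSI libraries).

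Activation was applied to the ROSI groups and not to the ICSI groups: a bath of 1 to 2 h in calcium-free CZB medium with 5 mM SrCl2. Culture in KSOM was common to both. The paternal cell and the activation step therefore cannot be told apart in any ROSI against ICSI comparison. The labels do not say that replicate libraries came from separate injections or pools, so p-values measure the spread between these libraries. In such bulk libraries a change in the RNA per cell and a change in the cells collected cannot be told apart.

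At most imprinted genes one parental copy is silenced by DNA methylation set in the germ line. In the genes studied here the mark is instead trimethylation of histone H3 at lysine 27 (H3K27me3), laid down in the growing oocyte by Polycomb repressive complex PRC2 and carried on the maternal copy into the early embryo, where the paternal copy is the one expressed. Most of these imprints fade as the embryo implants, while a few, such as those of Gab1, Sfmbt2 and Slc38a4, last in the placenta, whose growth these genes affect. The series asks how H3K27me3 brought in by the male germ cell bears on the first wave of embryonic transcription after ROSI.

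Reads recovered from the TPM values amounted to 8.48 M to 85.9 M per library (M, 1000000 reads), the fewest in ICSI 2-cell replicate 1. Summed TPM of 6 oocyte and zygote store genes were 3747 to 4749 in zygotes and 500.1 to 734.6 in 2-cell embryos. Those of 7 genes of 2-cell activation were 75.9 to 108.2 and 399.6 to 856.2, so the stage labels and these sums go together. Single genes were weaker or opposite after ROSI. The mean of Tcstv1, of the activation genes, went from 26.9 to 21.2 TPM, and that of the store gene Zp3 from 119.2 to 106.7 TPM. A gene entered the tests when it reached 1 TPM in at least 2 libraries (21938 genes). Of the 10 imprinted genes 7 did; Smoc1, Slc38a4 and Runx1 did not, and Sfmbt2 and Tle3 did so only through the 2-cell libraries, which bears on their stage comparison. Differences below are in log2(TPM + 1) from limma, with a Benjamini-Hochberg adjusted p under 0.05 over all 21938 genes as the threshold for calling a gene higher or lower; this scale understates the change of genes near or under 1 TPM.

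The 4 genes on which the comparisons turn are shown first by the 250 bases before their transcription start, because Gab1 and Btg3 moved together between ROSI and ICSI, and Jade1 and Tle3 rose most between the stages. The sequences are RefSeq's on build GRCm38.p6, written 5′ to 3′ on the strand of the gene; capitals mark the letters GGGCGG (the core of a GC box), CCAAT and CCGGAAG (the core of a site for ETS factors) on either strand. The Gab1 sequence lies at chr8:80880520-80880769 on the minus strand, Btg3 at chr16:78377182-78377431 on the minus strand, Jade1 at chr3:41555484-41555733 on the plus strand and Tle3 at chr9:61372116-61372365 on the plus strand.
Gab1: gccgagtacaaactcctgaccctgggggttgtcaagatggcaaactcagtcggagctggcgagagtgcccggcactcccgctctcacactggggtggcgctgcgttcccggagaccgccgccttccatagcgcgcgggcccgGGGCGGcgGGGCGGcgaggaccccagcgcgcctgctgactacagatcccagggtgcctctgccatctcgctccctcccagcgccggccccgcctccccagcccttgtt
Btg3: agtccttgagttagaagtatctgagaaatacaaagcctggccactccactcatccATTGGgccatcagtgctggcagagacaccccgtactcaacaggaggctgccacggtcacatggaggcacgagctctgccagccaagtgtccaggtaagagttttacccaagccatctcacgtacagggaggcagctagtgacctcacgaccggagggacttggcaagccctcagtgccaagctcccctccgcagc
Jade1: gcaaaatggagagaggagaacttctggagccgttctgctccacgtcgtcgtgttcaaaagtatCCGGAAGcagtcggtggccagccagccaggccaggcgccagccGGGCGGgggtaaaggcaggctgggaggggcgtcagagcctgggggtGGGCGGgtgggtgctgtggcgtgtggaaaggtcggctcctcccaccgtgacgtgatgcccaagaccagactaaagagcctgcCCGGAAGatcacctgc
Tle3: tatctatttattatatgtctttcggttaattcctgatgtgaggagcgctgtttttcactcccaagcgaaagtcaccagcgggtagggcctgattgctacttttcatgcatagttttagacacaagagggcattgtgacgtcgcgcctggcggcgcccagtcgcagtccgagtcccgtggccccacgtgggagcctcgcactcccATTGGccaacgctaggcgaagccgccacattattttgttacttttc

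The windows of Gab1 and Jade1 each held 2 copies of GGGCGG and no CCAAT, whereas those of Btg3 and Tle3 held 1 CCAAT (read as ATTGG on the strand shown) and no GGGCGG. The Jade1 window alone of the 4 held CCGGAAG, in 2 copies. Gab1 and Btg3, which shared a direction in 2-cell embryos, thus shared none of these letters, and their windows differed in CpG dinucleotides, with 24 in Gab1 and 7 in Btg3. Jade1 and Tle3 had 16 and 17.

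RefSeq windows were matched for 8 of the 10 genes. For each gene the window nearest its GENCODE start was used. Gab1, Btg3, Sfmbt2 and Runx1 had 2 windows each, Slc38a4 had 3 and Jade1 had 4. The shares over all windows count every window, including further starts of the same gene, so the 2 sets are not alike in this. GGGCGG was present in 5 of the 8 and in 32.7% of 32851 windows of the same length, CCAAT in 5 of 8 and 33.8%, and CCGGAAG in 2 of 8 and 6.91%. TATAAA, the TATA box, was in none of the 8 and in 12.4% of all windows; GGATTA, the core bound by Obox and Otx homeodomain proteins, was in none of the 8 and in 6.25%. The 8 windows held a median of 12 CpG (2 in Runx1 to 24 in Gab1) against 6 over all windows. A match describes letters in a window, and its absence covers that window only.

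The genes were also long. On GENCODE M21 (mm10) the 10 gene bodies spanned 44.6 to 240.5 kb with a median of 137.8 kb, against a median of 22.6 kb over 13925 tested protein-coding genes. Gab1 (ENSMUSG00000031714) occupies chr8:80764438-80880519, Btg3 (ENSMUSG00000022863) chr16:78332637-78377192, Jade1 (ENSMUSG00000025764) chr3:41555731-41616864 and Tle3 (ENSMUSG00000032280) chr9:61372366-61418497. Bbx and Runx1 lie with Btg3 on chromosome 16.

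**Figure D1:**
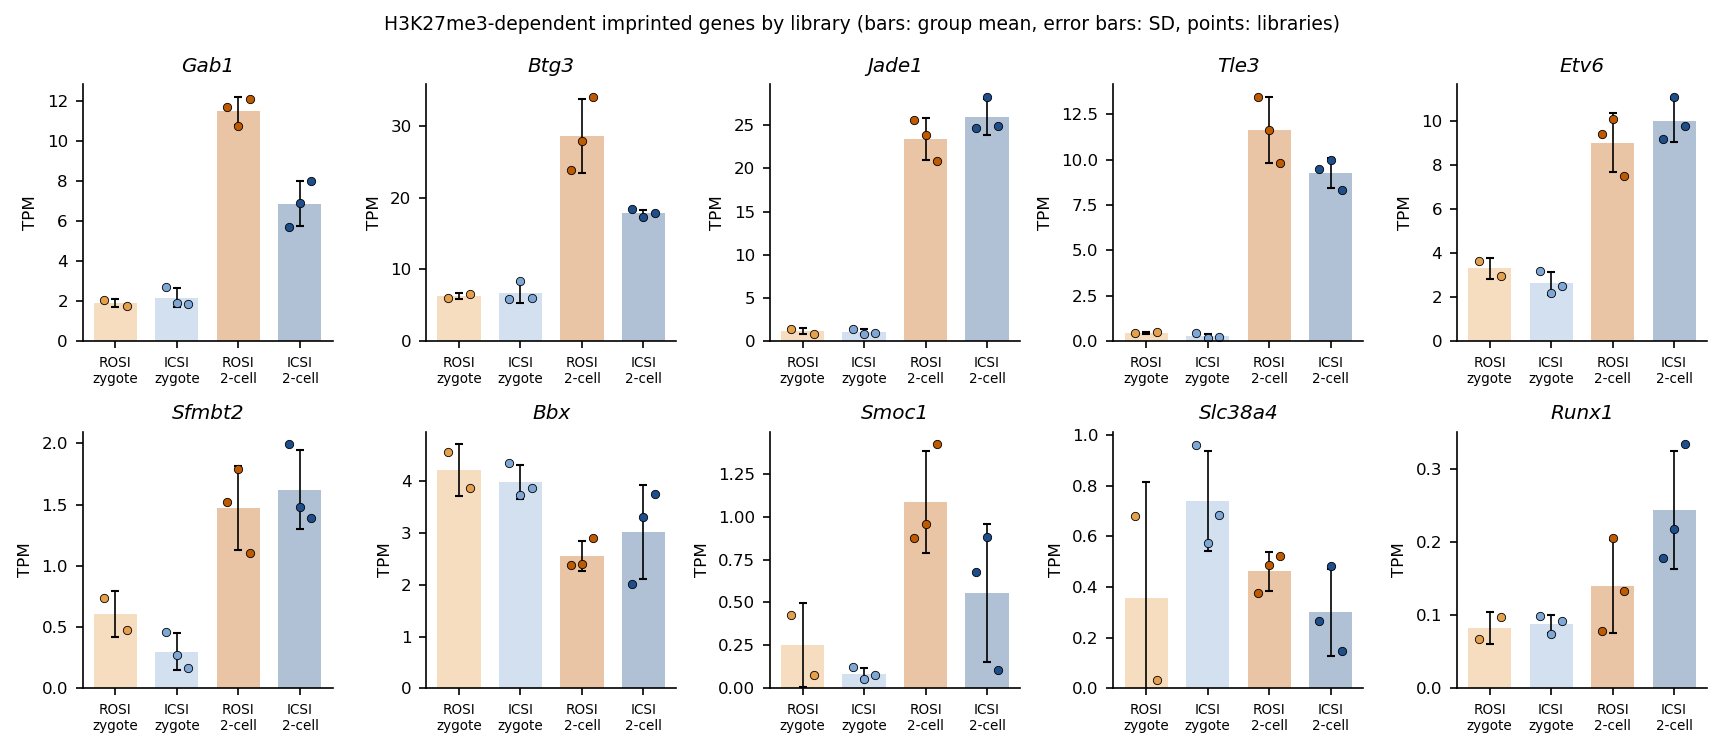
TPM (vertical axes, each starting at 0) of the 10 imprinted genes in ROSI zygotes, ICSI zygotes, ROSI 2-cell and ICSI 2-cell embryos; bars are group means, error bars SD, points libraries (n = 2, 3, 3, 3). Gab1 and Btg3 separate ROSI from ICSI at the 2-cell stage, while Jade1 and Tle3 go from about 1 TPM or less in zygotes to between 8.33 and 28.3 TPM in 2-cell embryos.

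In 2-cell embryos, Gab1 and Btg3 were higher after ROSI than after ICSI and no imprinted gene was lower: 2 of the 7 tested genes passed, against 4.93% of all tested genes called higher and 4.58% called lower (9.51% in either direction). Their ROSI means were 1.68-fold and 1.61-fold the ICSI means. The other 5 tested genes, Jade1, Tle3, Etv6, Sfmbt2 and Bbx, did not pass. The median difference of the 7 genes was -0.09, beside 0.04 over all tested genes. Of all genes called, 51.8% were higher; this share was 30.6% with median-ratio scaling and 62.4% on protein-coding genes alone, and Gab1 and Btg3 were higher under both scalings.

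Gab1 encodes a docking protein that gathers PI3 kinase and the phosphatase SHP2 at activated receptor tyrosine kinases. Its TPM were 11.7, 10.7 and 12.1 in the 3 ROSI 2-cell libraries and 5.72, 6.92 and 7.99 in the 3 ICSI 2-cell libraries. The lowest ROSI library stood above the highest ICSI library. The difference was 0.68 (SE 0.15, limma adjusted p = 0.0244).

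Btg3, of the BTG/Tob family of antiproliferative proteins that recruit the CCR4-NOT deadenylase, measured 23.9, 27.9 and 34.1 TPM in ROSI 2-cell libraries and 18.3, 17.3 and 17.8 TPM in ICSI 2-cell libraries. The ICSI libraries lay close together and the ROSI libraries were spread, without overlap. The difference was 0.64 (SE 0.16, limma adjusted p = 0.0309). Libraries of the groups were separated in the higher direction for these 2 of 7 genes and for 15.4% of all tested genes, and in the lower direction for 0 of 7 and 11.8%.

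Both calls sat near the threshold. Gab1 had limma adjusted p-values of 0.0521 to 0.0681 when ROSI 2-cell replicate 1, 2 or 3 or ICSI 2-cell replicate 1 or 2 was left out, and Btg3 of 0.0627 to 0.0813 without ROSI 2-cell replicate 2 or 3 or ICSI 2-cell replicate 1, 2 or 3, with differences of 0.57 to 0.72 and 0.51 to 0.66 in those fits. With the 6 2-cell libraries fitted alone the adjusted p was 0.0653 for Gab1 and 0.0638 for Btg3, and with no filter on low values 0.0560 for Btg3.

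Other transcripts separated the same 2-cell libraries. The summed TPM of 12 spermatid transcripts was 40.0 to 58.6 in ROSI and 10.7 to 15.5 in ICSI 2-cell embryos, with 0 to 2 and 3 to 6 of the 12 genes at 0. The 7 genes of 2-cell activation summed to 399.6 to 598.4 TPM after ROSI and 825.3 to 856.2 after ICSI. The part of either in the Gab1 and Btg3 differences was not tested. Markers of 10 cumulus and granulosa genes summed to 3.81 to 4.86 TPM in ROSI and 6.34 to 6.74 TPM in ICSI 2-cell embryos.

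Among the genes that did not pass in 2-cell embryos, Tle3, a Groucho-family corepressor, came closest. It had 13.5, 11.6 and 9.82 TPM after ROSI and 9.47, 9.95 and 8.33 TPM after ICSI, so the lowest ROSI library fell within the ICSI range. The difference was 0.29 (95% interval -0.04 to 0.63, limma adjusted p = 0.248).

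Jade1, a scaffold of the HBO1 histone acetyltransferase complex, had 25.6, 23.9 and 20.8 TPM after ROSI and 24.6, 28.3 and 24.9 TPM after ICSI. The ETS-family repressor Etv6 had 9.40, 10.1 and 7.51 against 9.18, 11.1 and 9.74 TPM. The libraries of both genes overlapped. The intervals of the difference were -0.47 to 0.19 for Jade1 and -0.49 to 0.20 for Etv6.

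Sfmbt2, a Polycomb-group protein with MBT domains that the placenta needs, had 1.10 to 1.79 TPM after ROSI and 1.40 to 2.00 TPM after ICSI (interval -0.52 to 0.34). Bbx, an HMG-box protein, had 2.38 to 2.90 and 2.01 to 3.76 TPM (interval -0.55 to 0.25). The intervals of these 4 genes hold 0 and are wide, so similar expression was not shown.

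**Figure D2:**
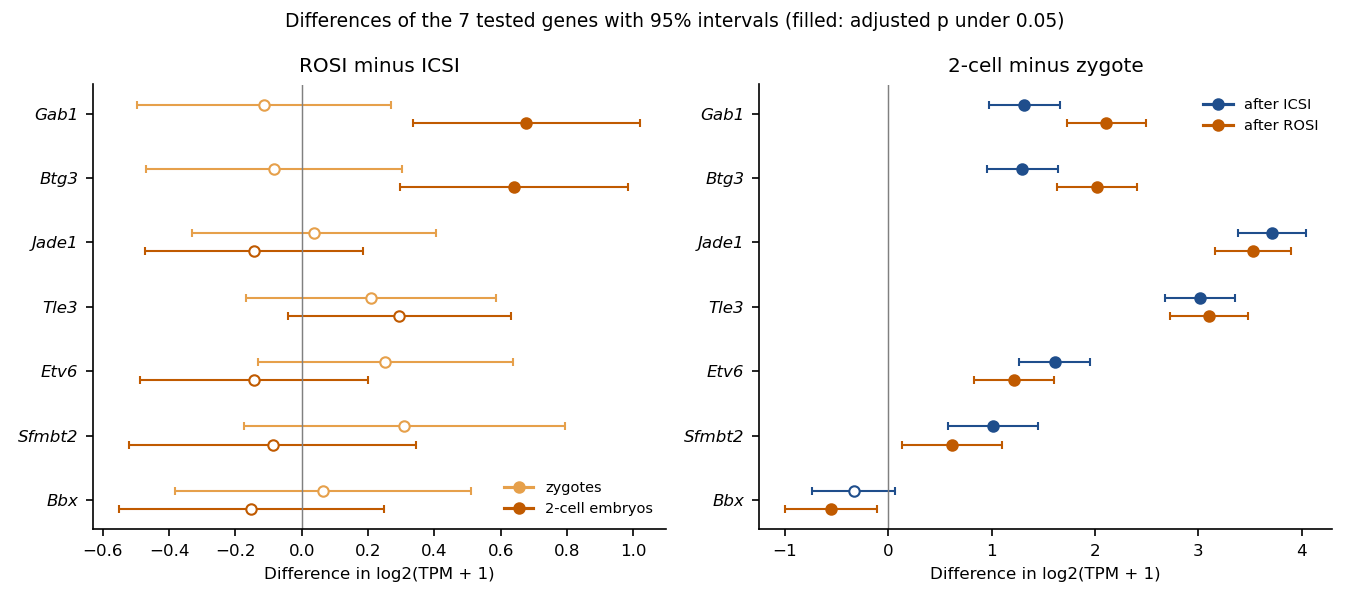
Differences in log2(TPM + 1) of the 7 tested imprinted genes with 95% intervals; left, ROSI minus ICSI in zygotes and in 2-cell embryos; right, 2-cell minus zygote after ICSI and after ROSI; filled points passed the adjusted p of 0.05. On the left only the 2-cell points of Gab1 (0.68) and Btg3 (0.64) are filled; on the right every point but that of Bbx after ICSI (-0.33) is.

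In zygotes none of the 7 tested imprinted genes differed between ROSI and ICSI at an adjusted p under 0.05 in limma (adjusted p of 1 for each), while 0.146% of all tested genes did (0.114% higher, 0.0319% lower); at an unadjusted p under 0.05, 1392 genes passed and none of the 7 was among them. Gab1 had 2.06 and 1.75 TPM in ROSI zygotes and 2.71, 1.91 and 1.86 TPM in ICSI zygotes. Btg3 had 5.95 and 6.52 against 5.82, 8.40 and 6.02 TPM. Both genes, which separated the groups at the 2-cell stage, overlapped here, with intervals of -0.50 to 0.27 for Gab1 and -0.47 to 0.30 for Btg3.

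Sfmbt2 and Tle3 were at low levels in zygotes. Sfmbt2 had 0.742 and 0.475 TPM after ROSI and 0.458, 0.275 and 0.163 TPM after ICSI. Tle3 had 0.427 and 0.501 TPM after ROSI and 0.419, 0.178 and 0.217 TPM after ICSI. For both genes the 2 ROSI libraries stood just above the highest ICSI library, a separation found in that direction for 6.97% of all tested genes (19.4% in the other direction, where no imprinted gene was), and neither passed the test (differences of 0.31 and 0.21).

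Between the zygote and the 2-cell stage, 6 of the 7 tested genes rose after ICSI, namely Jade1, Tle3, Etv6, Gab1, Btg3 and Sfmbt2. After ROSI the same 6 rose and Bbx fell. Over all tested genes 68.1% were called after ICSI, 33% higher and 35% lower, and 67.9% after ROSI, 35.6% higher and 32.3% lower. Libraries of the 2 stages did not overlap for each of these calls, as for 34.9% (higher) and 37.3% (lower) of all tested genes after ICSI and 40.2% and 35.9% after ROSI. Sfmbt2 and Tle3 entered the test only through their 2-cell libraries and so had to differ; of the other 5 genes, 4 rose after each procedure, with Bbx the exception. The median difference of those 5 genes was 1.32 after ICSI and 2.02 after ROSI, beside 0.00 and 0.19 over all tested genes. Restricting the table to protein-coding genes and rescaling it moved the all-gene medians to 0.21 and 0.29, and all 6 genes rose under it too.

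Jade1 had the largest difference on the log2(TPM + 1) scale, while Tle3 had the largest ratio of mean TPM. The Jade1 zygote libraries had 1.37 and 0.876 TPM (ROSI) and 1.41, 0.869 and 0.925 TPM (ICSI), far under the 20.8 to 28.3 TPM of all 6 2-cell libraries. The 2-cell mean was 24.3-fold the zygote mean after ICSI and 20.8-fold after ROSI. In limma the differences were 3.71 (SE 0.15, adjusted p = 4.84e-09) and 3.53 (SE 0.17, adjusted p = 1.88e-08).

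Tle3 went from under 1 TPM in every zygote library to between 8.33 and 13.5 TPM in the 2-cell libraries. Its 2-cell mean was 34.1-fold the zygote mean after ICSI and 25.1-fold after ROSI. The limma differences were 3.01 after ICSI (SE 0.15, adjusted p = 2.40e-08) and 3.10 after ROSI (SE 0.17, adjusted p = 5.33e-08). Etv6 had 2.17 to 3.63 TPM in zygotes and 7.51 to 11.1 TPM in 2-cell embryos. It rose by 1.61 after ICSI and by 1.21 after ROSI.

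Gab1 and Btg3 started at 1.75 to 2.71 and 5.82 to 8.40 TPM in zygotes and were higher in every 2-cell library. The Gab1 mean was 3.18-fold higher at the 2-cell stage after ICSI and 6.05-fold after ROSI (differences of 1.32 and 2.11). The Btg3 mean was 2.64-fold and 4.59-fold higher (1.30 and 2.02). Sfmbt2 rose by 1.01 after ICSI (limma adjusted p = 0.000802) and by 0.62 after ROSI (adjusted p = 0.0273).

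Bbx ran the other way. It had 4.57 and 3.86 TPM in ROSI zygotes and 2.38, 2.41 and 2.90 TPM in ROSI 2-cell embryos, without overlap, and fell by 0.55 (limma adjusted p = 0.0315). After ICSI it had 4.34, 3.74 and 3.86 TPM in zygotes and 2.01, 3.30 and 3.76 TPM in 2-cell embryos, which overlapped (difference -0.33, interval -0.73 to 0.07). No 2-cell library of Bbx exceeded the highest zygote library, in contrast to the 6 genes that rose.

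The calls of Sfmbt2 and Bbx after ROSI were lost without single libraries, and that of Bbx also under another scaling. The adjusted p of Sfmbt2 was 0.164 without ROSI zygote replicate 2, 0.0516 and 0.0779 without ROSI 2-cell replicate 1 or 2, and that of Bbx was 0.171 and 0.0596 without ROSI zygote replicate 1 or 2 and 0.0664 and 0.0702 without ROSI 2-cell replicate 1 or 2. On rescaled protein-coding genes the Bbx differences were -0.21 after ROSI (adjusted p = 0.368) and 0.08 after ICSI, and with no filter on low values the adjusted p was 0.0547 for Sfmbt2 and 0.0588 for Bbx after ROSI. With the ROSI libraries fitted alone that of Sfmbt2 was 0.0638.

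Whether the stage change itself differed between ROSI and ICSI was tested as an interaction. None of the 7 genes passed in limma, and 0.0182% of all tested genes did (0.0137% higher, 0.00456% lower); at an unadjusted p under 0.05, 3303 genes passed. The values for Gab1 were 0.79 (SE 0.23, unadjusted p = 0.00623, adjusted p = 0.161) and for Btg3 0.72 (SE 0.23, unadjusted p = 0.0107, adjusted p = 0.192). The larger 2-cell rise of both genes after ROSI was therefore not shown to differ from that after ICSI at this threshold. Intervals for Jade1 (-0.68 to 0.31), Tle3 (-0.42 to 0.59), Etv6 (-0.91 to 0.12), Sfmbt2 (-1.05 to 0.25) and Bbx (-0.82 to 0.38) all held 0.

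The 3 genes under the filter are given as values. Slc38a4, a transporter of neutral amino acids, had 27 and 4 reads in ROSI zygotes, 98, 57 and 60 in ICSI zygotes, 16, 19 and 17 in ROSI 2-cell and 4, 23 and 8 in ICSI 2-cell embryos. In TPM these were 0.680 and 0.0345, 0.575 to 0.961, 0.376 to 0.522 and 0.148 to 0.485. ROSI zygote replicate 2 stood apart from the other zygote libraries: its 4 reads in 85.9 M carry an exact Poisson 95% interval of 0.00941 to 0.0884 TPM, which covers counting error only.

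Smoc1, a secreted calcium-binding matrix protein, had 0.876, 0.958 and 1.42 TPM in ROSI 2-cell embryos and 0.680, 0.882 and 0.105 TPM in ICSI 2-cell embryos. Its zygote libraries had 0.427 and 0.0781 TPM after ROSI and 0.0570 to 0.122 TPM after ICSI. The lowest ICSI 2-cell library lay at the zygote level. With no filter, the limma rise after ROSI was 0.74 (adjusted p = 0.0392) and that after ICSI 0.48 (adjusted p = 0.125). On rescaled protein-coding genes, where Smoc1 passed the filter, the limma rises were 1.26 (adjusted p = 0.00376) and 0.84 (adjusted p = 0.0205). The difference between the ROSI and ICSI stage changes passed in neither setting (limma adjusted p = 0.774 and 0.629).

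Runx1, a transcription factor of blood formation, was lowest, at 0.0673 to 0.0983 TPM in zygotes, 0.0784, 0.206 and 0.133 TPM in ROSI and 0.179, 0.218 and 0.334 TPM in ICSI 2-cell embryos, from 8 to 54 reads. ROSI and ICSI overlapped at both stages. Summed TPM of 7 blood cell markers were 1.10 to 6.42 in zygotes, 15.6 to 19.1 in ROSI and 9.56 to 13.8 in ICSI 2-cell embryos. Of the 4 tested markers 3 were called higher between stages after both procedures, beside 33% of all tested genes after ICSI and 35.6% after ROSI. Cd52 and Hba-a1, at most 0.230 and 0.429 TPM in zygotes, passed the filter only through 2-cell libraries. Any call of these genes between stages had to be a rise. The means of Cd74, most of the 2-cell marker sum, were 1.11 and 0.642 TPM in ROSI and ICSI zygotes and 11.6 and 6.51 TPM in 2-cell embryos. Those of Cd52 and the hemoglobin gene Hba-a1 reached 1.10 to 2.07 and 2.19 to 3.31 TPM in 2-cell embryos. Ptprc, which defines white blood cells, reached at most 0.0942 TPM in any library, and Tyrobp was at 0 in all 2-cell libraries. The part of these transcripts in the Runx1 values was not tested.

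Btg3 shares transcribed sequence with a neighbour. Cxadr, the coxsackievirus and adenovirus receptor, is transcribed towards it on the opposite strand. On GENCODE M21, 695 exonic bases belong to both genes, which is 17.3% of the exon bases of Btg3 and 9.39% of those of Cxadr. The Btg3 values gave whole reads at 4317 rather than the 4014 bases of M21, so the counted overlap may differ. Cxadr had 14.8, 16.1 and 21.5 TPM in ROSI 2-cell and 2.93, 4.27 and 5.56 TPM in ICSI 2-cell embryos, without overlap, and 1.06 to 1.52 TPM in zygotes. The 2-cell difference of Cxadr was 1.83 (SE 0.20, limma adjusted p = 0.00323) and thus larger than that of Btg3. The library kit marks strand, but the strand setting of the counting is not given in the sources used here, so reads on the shared bases cannot be told apart between Btg3 and Cxadr.

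**Figure D3:**
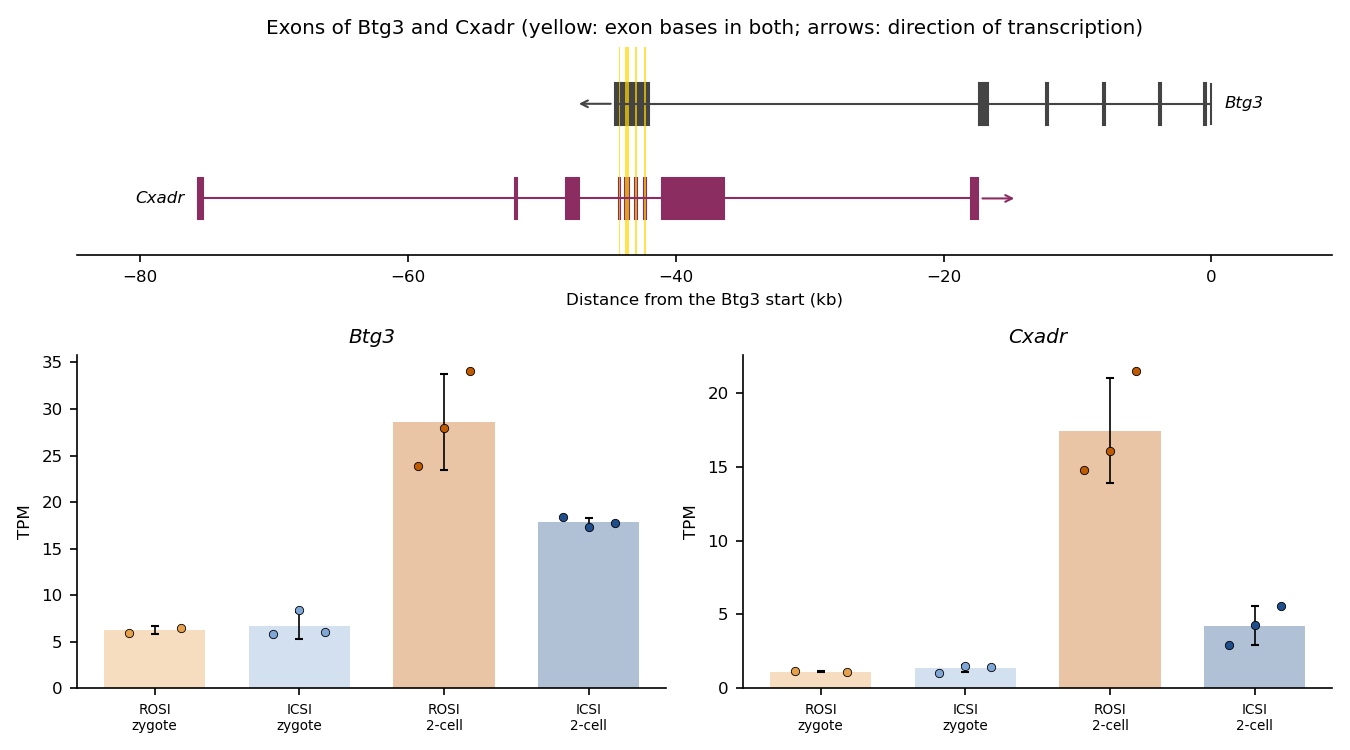
Top, exons of Btg3 and Cxadr by distance in kb from the Btg3 start, with the 695 shared exonic bases in yellow and arrows for the direction of transcription; bottom, TPM of both genes in the 4 groups (bars: mean, error bars: SD, points: libraries). The ROSI 2-cell libraries are the highest of both genes, at 23.9 to 34.1 TPM for Btg3 and 14.8 to 21.5 TPM for Cxadr.

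Shared exons were smaller elsewhere. Gab1, Jade1, Etv6 and Runx1 overlapped antisense transcripts by 106 to 290 exonic bases. For Gab1 this partner, Gm31105, reached at most 0.406 TPM, against 5.72 to 12.1 TPM for Gab1 in 2-cell embryos. The partners of Jade1 (Gm31266) and Etv6 (Gm17089) reached at most 2.91 and 1.93 TPM. That of Runx1 (Gm26626) reached 0.520 TPM, above the highest Runx1 value of 0.334 TPM. The part of reads on shared bases in the values of these 4 genes was not tested. The body of Sfmbt2 holds a large microRNA cluster. The recovered reads of its hairpin genes summed to 7 to 83 per library and none shared exon bases with Sfmbt2.

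The nearest tested protein-coding genes on either side, 20 in all, were read as well. In 2-cell embryos 2 of the 20 were higher after ROSI and none lower: Cxadr, and Slc38a2, a neutral amino acid transporter beside Slc38a4 (0.83, limma adjusted p = 0.0436; 0.0506 to 0.122 without any single library other than ICSI 2-cell replicate 1). Slc38a2 reached 1 TPM in every ROSI 2-cell library (2.03 to 2.89 TPM). Elsewhere it did so only in ICSI 2-cell replicate 1 (1.66 TPM). It thus passed the filter only through the ROSI 2-cell group, so its call could only be higher after ROSI. With no filter on low values its limma adjusted p was 0.0908. The shares over all tested genes were 4.93% higher and 4.58% lower. The neighbours of Gab1, Smarca5 among them, did not pass in this comparison. Between stages 8 flanking genes rose and 4 fell after ICSI, and 9 rose and 4 fell after ROSI. Over all tested genes 33% rose and 35% fell after ICSI and 35.6% and 32.3% after ROSI, so the 20 flanking genes are to be read against those shares. Sclt1, 9.86 kb from Jade1, fell by 1.76 after ICSI. Of the flanks of Etv6, Bcl2l14 at 126.2 kb rose by 4.14, and Ybx3 at 2647 kb fell by 2.50. Among the flanks that rose after ROSI, Bcl2l14, Prkcq, Slc38a2, Amigo2 and Cd47 passed the filter only through 2-cell libraries. Their rise carries the limit given for Sfmbt2 and Tle3. Rplp1, 494.8 kb from Tle3, rose by 4.46.

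Related genes, 31 listed paralogs of which 27 were tested, split evenly between stages: 12 rose and 12 fell after ICSI, and 11 and 11 after ROSI. Jade3, Slc38a2, Slc38a3, Slc38a6 and Runx3, among others, passed the filter only through 2-cell libraries, and Slc38a9 only through zygote libraries. The filter fixed the direction of such genes, so the even split is to be read with that limit. Over all tested genes 33% rose and 35% fell after ICSI, and 35.6% and 32.3% after ROSI. The Gab family parted. Gab2 fell from 27.8 to 38.1 TPM in ICSI zygotes to 8.45 to 9.20 TPM in ICSI 2-cell embryos and Gab3 from 10.1 to 10.2 TPM to 0.884 to 1.15 TPM, while Gab1 rose; Gab1 had the lowest mean of the 3 in zygotes (2.16 TPM after ICSI). The Gab2 and Gab3 differences were -1.70 and -2.44 after ICSI and -2.28 and -2.09 after ROSI.

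Among the Jade genes, Jade2 was the abundant one in zygotes, at 146.2 to 170.8 TPM after ICSI, and fell by 1.95 after ICSI, and to 18.1 to 28.5 TPM after ROSI. Jade3 rose by 3.07 and 3.25, but it passed the filter only through its 2-cell libraries and so had to rise. By the 2-cell stage Jade1 and Jade2 were at 25.9 ± 2.05 and 39.5 ± 5.07 TPM after ICSI (SD, n = 3). Sfmbt1, chosen after its values were seen, fell by 1.73 after ICSI and 2.15 after ROSI while Sfmbt2 rose.

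In the BTG/Tob family Btg1 followed Btg3. It had 25.0 to 29.1 TPM in ROSI and 14.2 to 15.9 TPM in ICSI 2-cell embryos and was higher by 0.78 (SE 0.13, limma adjusted p = 0.00740). Tob1 rose between stages by 2.53 after ICSI and 2.23 after ROSI. Btg4, the oocyte member that directs decay of maternal mRNA (chosen after its values were seen), had 2255 to 3085 TPM in zygotes and fell by 1.98 and 1.92. Etv5 rose by 2.35 and 2.33.

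**Figure D4:**
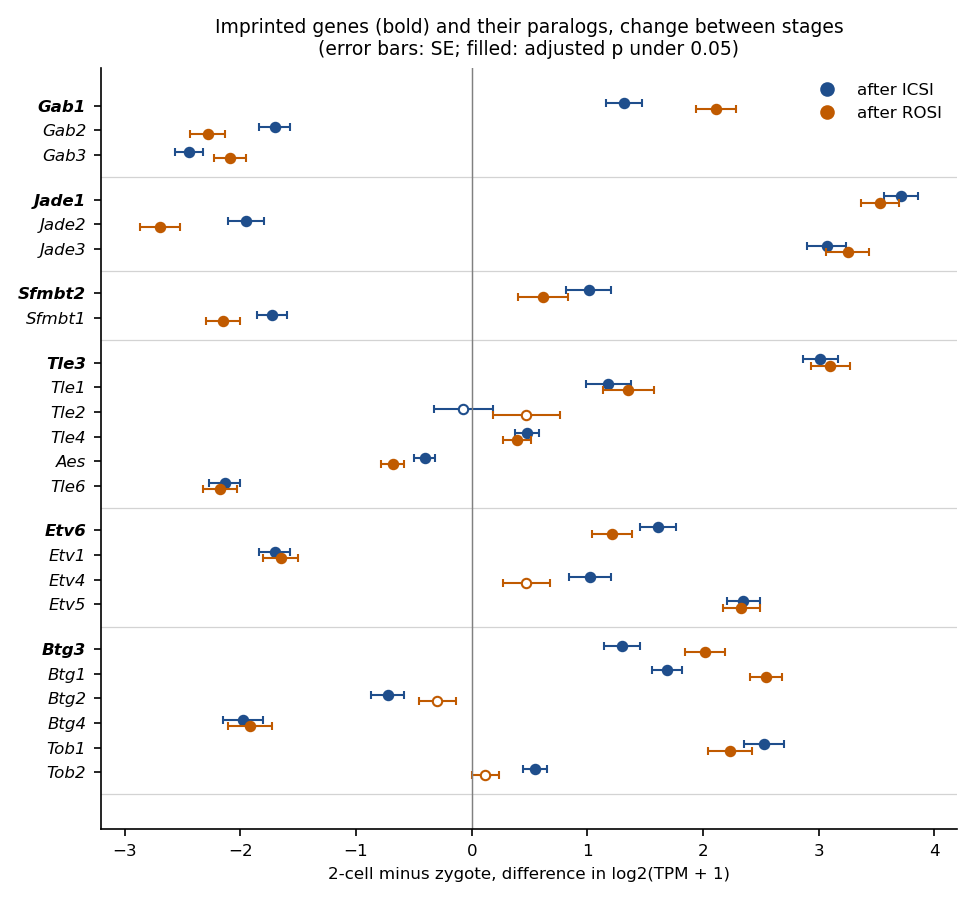
Change between the zygote and the 2-cell stage (horizontal axis, difference in log2(TPM + 1)) of 6 imprinted genes (bold) and their tested paralogs in 6 families, after ICSI and after ROSI; error bars are SE and filled points passed the adjusted p of 0.05. All 6 imprinted genes lie right of 0, while Gab2, Gab3, Jade2, Sfmbt1 and Btg4 lie left of it.

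Between ROSI and ICSI 2-cell embryos 2 of the 27 paralogs were higher, Btg1 and Slc38a2, and 5 lower. Slc38a2 passed the filter only through the ROSI 2-cell group, so its call carries the limit given with the flanking genes. Over all tested genes 4.93% were called higher and 4.58% lower. Gab2 had 4.44 to 5.43 TPM after ROSI and 8.45 to 9.20 TPM after ICSI, a difference of -0.74 (SE 0.13, limma adjusted p = 0.0115), opposite in sign to Gab1. Jade2 was lower by 0.72 (-0.72, adjusted p = 0.0199; 0.0633 without ICSI 2-cell replicate 2), while Jade1 did not pass. In zygotes no paralog passed.

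Of 14 tested genes for writers and erasers of H3K27me3 and for proteins that act with or on PRC2, 10 fell and 2 rose between stages after ICSI. After ROSI 8 fell and 2 rose. Over all tested genes 35% fell and 33% rose after ICSI, and 32.3% and 35.6% after ROSI. The PRC2 methyltransferase Ezh2 fell from 285.4 ± 22.5 to 82.1 ± 3.18 TPM after ICSI (SD, n = 3), and its partner Eed from 198.7 ± 19.6 to 44.3 ± 2.51 TPM, with differences of -1.78 and -2.14. AU022751, the PRC2 inhibitor of oocytes, fell by 3.59. Between ROSI and ICSI 2-cell embryos 1 of the 14 passed, beside 9.51% of all tested genes. It was the demethylase Kdm6b, lower after ROSI (48.4 ± 7.18 against 96.0 ± 15.2 TPM, SD, n = 3), by 0.97 on the log2 scale (-0.97, SE 0.15, limma adjusted p = 0.00681).

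Among 11 tested genes tied to the Polycomb mark on H2A (PRC1) or, as Smchd1, to silent chromatin, 3 rose and 7 fell after ICSI. After ROSI 3 rose and 4 fell. Ring1, at most 0.284 TPM in zygotes, passed the filter only through ROSI 2-cell libraries, which bears on these counts. The shares over all tested genes were 33% and 35% after ICSI, and 35.6% and 32.3% after ROSI. Pcgf5 rose by 3.56 after ICSI, and Pcgf1 and Kdm2b fell by 2.46 and 2.55. Smchd1 was the 1 gene of the 11 that passed between ROSI and ICSI 2-cell embryos, where 9.51% of all tested genes did. It was higher by 0.46 (SE 0.10, limma adjusted p = 0.0215). The adjusted p was 0.0592 without ROSI 2-cell replicate 2 and 0.0576 without ICSI 2-cell replicate 1.

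Of 15 tested partners of the imprinted gene products, 4 rose and 8 fell between stages in both kinds of embryo. Over all tested genes 33% rose and 35% fell after ICSI, and 35.6% and 32.3% after ROSI. Ing5, a subunit of the HBO1 complex with Jade1, fell by 1.94 after ICSI, opposite to Jade1. In 2-cell embryos none was higher after ROSI and 3 were lower, beside 4.93% and 4.58% of all tested genes. These were Hes1, a repressor that binds Groucho proteins such as Tle3 (-1.43, limma adjusted p = 0.0122), Pik3r1, the PI3 kinase subunit bound by Gab1 (-0.38, adjusted p = 0.0394), and Cnot7, a deadenylase bound by BTG proteins (-0.46, adjusted p = 0.0228). The Pik3r1 call was lost on leaving out any library other than ICSI 2-cell replicate 3 or ROSI 2-cell replicate 3, and the Cnot7 call without ROSI 2-cell replicate 1 or 2 or ICSI 2-cell replicate 2 or 3 (adjusted p up to 0.121 and 0.0775).

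A further 15 candidate genes of this kind of imprint were listed, 14 of which had a row and 5 of which were tested. None of the 5 passed between ROSI and ICSI 2-cell embryos, where 9.51% of all tested genes did. Epas1, a hypoxia-inducible factor, rose by 2.25 after ICSI and by 2.04 after ROSI, and Gramd1b by 1.23 and 1.03. Matn1, a cartilage matrix protein, fell by 1.15 and 1.41. Epas1 and Gramd1b passed the filter only through their 2-cell libraries, and Matn1 only through its zygote libraries. All 3 genes therefore had to differ in these directions.

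The pattern over the 11 libraries most like each imprinted gene was sought among protein-coding genes averaging at least 5 TPM, by Pearson's r of log2(TPM + 1); these values describe libraries that share stage and depth. For Gab1 they were Rnf41 (0.997), Ubtd1 (0.996) and Ascc2 (0.994). For Btg3 they were its paralog Btg1 (0.993), Rps18 (0.990) and Cenpi (0.987). The genes nearest to Jade1, H2afz, Capn15 and Mak16, all reached 0.999.

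The genes nearest to Tle3 were Phrf1 (0.998), Rpusd2 and Plekho2 (both 0.997), and those nearest to Etv6 were Rsrp1 (0.990), Cfap157 and Ints5 (both 0.989). Sfmbt2 and Bbx had weaker best matches, led by Hist1h3f (0.967) and Sec16b (0.943). Rnf41 followed Gab1 in order of group means, at 51.7 TPM in ROSI and 34.1 TPM in ICSI 2-cell embryos.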

How the data were processed

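RNA-seq of 11 libraries in 4 groups was analysed. The authors deposited 1 table of TPM values per gene. Per the submitters' processing notes, fastp, Bowtie2, STAR 2.7.4a and featureCounts were used on build mm10; their order, the annotation and the strand setting are not given in the sources used here. Multiplying TPM by GENCODE M21 exon length gave whole reads (within 0.01) for 85.1% to 86.7% of values per library. Slc38a4, Btg3 and Runx1 did not give whole reads at their M21 lengths of 4261, 4014 and 12025 bases. Their reads were taken at 3952, 4317 and 11827 bases, lengths found by search that gave whole reads in all 11 libraries. The reads recovered at M21 lengths gave the depths stated. Poisson intervals cover counting error only, since the reads carry no molecular identifiers.

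log2(TPM + 1) was fitted with limma 3.58.1 (R 4.3.3; trend, 4 group means over 11 libraries) for genes of at least 1 TPM in at least 2 libraries, and 5 contrasts were adjusted by Benjamini-Hochberg over all genes tested; the fit was tested on simulated data. Members and lists were chosen with earlier results of these data known. All members are named. Genes of other lists were named from the up to 4 of largest difference among those passing in a contrast. Flanking genes were named from those that passed, and like genes from the 3 most correlated per member. Not every gene that qualified is named: Rbbp7 and the flanks Cox16, Setd4 and D16Ertd472e are among those left out of the results. Alternatives were pseudocounts of 0.1 and 5, no filter, a filter of 5 TPM, median-ratio scaling, protein-coding genes only, a replicate block, the 2 groups alone and leaving out each library; leaving out both zygote replicates 1 was added after seeing the data.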

Additional observations from a re-analysis of the deposited data

How the results depend on the processing

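The number of imprinted genes passing in 2-cell embryos, 2 by the test reported, was 1 with no filter on low values (Gab1) and 0 with the 2 groups fitted alone, which uses fewer samples; over the fits leaving out 1 library it ranged from 0 to 2. It was 0 in zygotes and 0 for the difference in stage change under every alternative run, 5 to 7 for the stage change after ICSI and 5 to 7 after ROSI. Of the named genes, Smchd1 reversed in 1 case: its fall of 0.41 between stages after ICSI became a rise of 0.0909 on rescaled protein-coding genes, and the cause was not tested. Calls over all tested genes ranged from 0 to 130 in zygotes (32 reported), from 597 to 3560 in 2-cell embryos (2087) and from 0 to 627 for the difference in stage change (4). For the difference in stage change 20.5% of calls were higher with median-ratio scaling, against 75% as reported, and that scaling moved its all-gene median from 0.10 to -0.04.

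With the replicate number as a block, 0 imprinted genes passed in zygotes, 2 in 2-cell embryos, 6 and 7 between stages after ICSI and ROSI, and 0 for the difference, so no member count moved. The block ended the calls of Slc38a2, Pik3r1 and Sfmbt1 in 2-cell embryos, of Enc1 between stages after ICSI, and of Amigo2 between stages after ROSI. Same-numbered 2-cell libraries correlated at 0.02, -0.003 and -0.01 in their deviations from group means, and the zygote ones at 0.33 and 0.22. The deviations of the 2 ROSI zygote libraries mirror each other, so the zygote values cannot decide whether the numbers are pairs. The main fit did not treat the numbers as pairs.

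Depth limits Slc38a4, Smoc1 and Runx1, whose values rest on 4 to 98 reads per library, and ICSI 2-cell replicate 1, with 8.48 M reads, most.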

Other observations

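The zygote libraries numbered 1 of both groups had 0.611% (ROSI) and 0.572% (ICSI) of their TPM in small nuclear and nucleolar RNA genes, against 1.64% to 2.58% in the other zygote libraries. In the same 2 libraries Gab1, Jade1, Etv6, Sfmbt2, Bbx, Smoc1 and Slc38a4 had their highest value within each zygote group, while Btg3, Tle3 and Runx1 did not in both groups. Over all tested genes the deviations of these 2 libraries from their group means correlated at 0.33. The share of all genes with this pattern was not counted, so it is not shown to be particular to the imprinted genes.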
